A study of Lathyrus oleraceus subsp. biflorus and Lathyrus oleraceus and [Pisum sativum] subsp. abyssinicum with 117 samples.

Results

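Messenger RNA of the seed coat was compared between PI358617, an Ethiopian pea that the study's design names Pisum abyssinicum, and a pair of domesticated accessions of P. sativum, the cultivar Cameor and the landrace JI92. The comparison used 24 of the 117 RNA sequencing libraries of the series: 8 of PI358617, 8 of Cameor and 8 of JI92, with 2 libraries per accession at each of the developmental stages D1, D2, D3 and D4. Genes were kept when edgeR's quasi-likelihood F test, with stage as a term, gave an adjusted p under 0.05 and the same sign in 3 comparisons: against both domesticated accessions as 1 class, against Cameor and against JI92. This rule kept 11649 of 34968 features tested, from 59594 features listed, and it left 6138 features higher and 5511 lower in PI358617. The plants of all 3 accessions grew in a glasshouse in spring, well watered and without treatment, and the labels give stages by number only, with no age in days. No label tells whether both libraries of an accession and stage came from separate plants, so the p-values rest on the spread between samples, and that spread may be technical. With the 2 libraries of each accession and stage summed to 1 sample, the rule kept 4359 features, 1971 higher and 2388 lower. PI358617 is 1 accession, and the tests compare these 3 accessions and not the species.

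The seed coat is maternal tissue that encloses the embryo, conducts sugars and amino acids to it during filling, and later hardens and collects pigments such as tannins. In wild peas the mature coat limits the entry of water, a form of dormancy that domesticated peas have largely lost. P. abyssinicum is a cultivated pea of Ethiopia and Yemen that is regarded as domesticated apart from P. sativum. The features carry 2 kinds of identifier: annotated genes, whose identifiers begin with Psat, and loci outside the annotation, whose identifiers begin with Ps_DOR2genes. The files do not pair either kind with gene names, and none (0) matched the RefSeq table of another pea assembly, so genes are described by their levels and patterns and not by function. Reads of every accession were mapped to the genome of Cameor, which is 1 of the accessions compared.

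Library totals ran from 58.3 to 96.4 M counts (M, mega), with a median of 65.4 M over the 24 libraries, 63.5 M in PI358617, 79.6 M in Cameor and 68.7 M in JI92. A single count was worth 0.0104 to 0.0172 CPM (counts scaled to the library total). Spearman's rank correlation between the 2 libraries of an accession and stage ran from 0.949 in JI92 at D1 to 0.988 in Cameor, and every pair differed by more than sampling noise. The tissue label was checked with 300 seed-coat-enriched genes defined in the wild accessions JI261 and JI1794. These genes took 13.9% to 22.2% of the counts in PI358617, 9.32% to 23.4% in the domesticated seed coats and at most 0.149% in the embryos of the same 3 accessions. The 50 abundant embryo genes, defined in the same way, took 0.0121% to 0.118% of the counts in PI358617 and 0.0257% to 0.444% in 14 domesticated libraries. In both JI92 libraries of D4 they took 4.11% and 4.21%, within the 0.43% to 8.73% of the embryos, so these 2 libraries stood apart from the other 22.

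The same stage label did not carry the same balance of early and late seed coat genes in the 3 accessions. A stage score was formed as the mean log2(CPM + 1) of 300 late seed coat genes minus that of 300 early ones, both lists defined between D1 and D5 in JI261 and JI1794. Some late genes, such as Psat7g134360 and Psat5g242600, also stood among the 300 embryo-enriched genes of these wild accessions. The JI92 embryos of D5 scored 4.89 in both libraries. The score therefore does not separate the age of the seed coat from embryo transcripts in it. In PI358617 the score was -4.51 and -4.53 in the 2 libraries of D1, -0.15 and -0.2 at D2, 0.03 and 0.02 at D3, and 1.1 and 1.07 at D4. In Cameor it was already -1.22 and -1.23 at D1 and reached 3.05 and 3.06 at D3 and 4.6 and 4.62 at D4. In JI92 it was -5.02 and -4.75 at D1, -1.68 and -1.45 at D2, 1.92 and 2.02 at D3, and 5.47 and 5.46 at D4. PI358617 therefore scored below both domesticated accessions at D3 and D4. At D2 it was level with Cameor (-0.25 and -0.22) and above JI92, and at D1 it was above JI92 and below Cameor. The rule was therefore also applied with the score of each library in place of the stage label, which kept 10824 features, 9783 of them kept with the same sign by the stage label. With both the label and the score as terms it kept 9571 features, 8656 of them in common. Without both JI92 libraries of D4 it kept 10971 features, 10232 of them in common. At D5, whose libraries took no part in the rule, PI358617 scored 4.24 in both libraries, against 5.01 in 1 library of Cameor and 6.34 in 1 library of JI92.

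**Figure D1:**
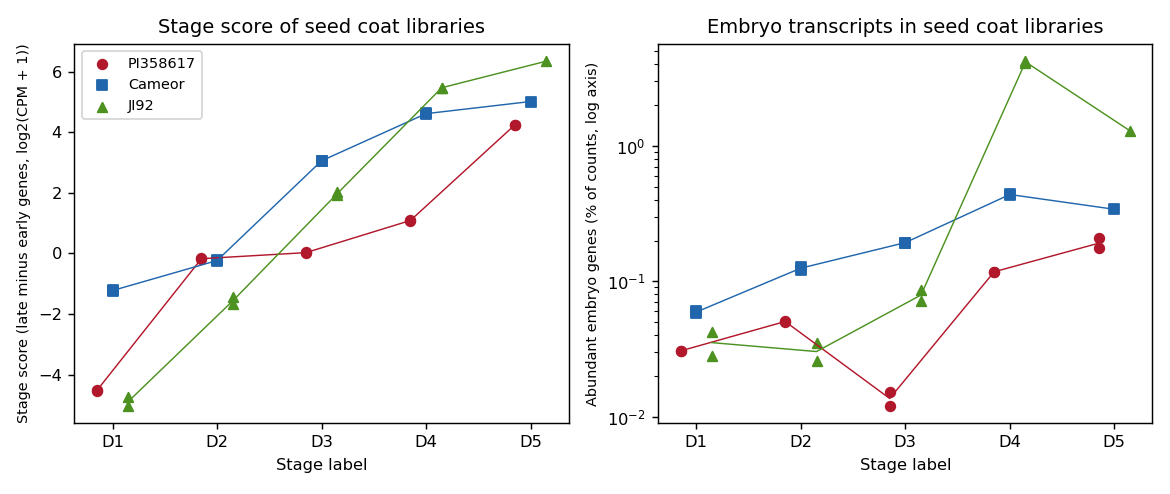
Left, stage score of each seed coat library (vertical axis, mean log2(CPM + 1) of late minus early seed coat genes), and right, share of counts in abundant embryo genes (vertical axis, percent, log scale), both by stage label D1 to D5 in PI358617, Cameor and JI92; points are single libraries and lines join the means of an accession. PI358617 scored below both domesticated accessions at D3, D4 and D5, and JI92 at D4 had 4.11% and 4.21% of its counts in embryo genes.

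Each comparison with a domesticated accession called most of the features tested, and these counts are what the rule used, so they are given as a description. Against both accessions as 1 class, 18804 of 34968 features passed (53.8%), 7904 higher (22.6%) and 10900 lower (31.2%) in PI358617. Against Cameor 23372 passed (66.8%), 33.3% higher and 33.5% lower. Against JI92 18176 passed (52%), 24.7% higher and 27.2% lower, and the same PI358617 libraries served in all 3. The kept features were 33.3% of those tested, with 17.6% higher and 15.8% lower. Annotated genes were split evenly, with 3787 of 24762 kept as higher (15.3%) and 3951 as lower (16%). Loci outside the annotation were not, with 2351 of 10206 kept as higher (23%) and 1560 as lower (15.3%). Scaled by transcript length, 3788 of the higher features reached a mean of 1 FPKM (fragments scaled by length and library) in PI358617 and 1653 reached 10 FPKM. Among the lower features 2635 reached 1 FPKM and 555 reached 10 FPKM in each of both domesticated accessions. That is a stricter demand than a level in 1 accession, so the counts of higher and lower features are not alike.

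Many differences among the kept features were wide, but counts of 0 or near 0 on 1 side widen them. Their median log2 fold change against the class was 3.25 for higher and -3.33 for lower features. It was -0.22 over all features tested, from which the choice by sign sets the others apart. Of the kept features 8005 differed by at least 1 on the log2 scale in all 3 comparisons. Over D1, D3 and D4 annotated genes kept as higher had medians of 15.1 CPM in PI358617, 8.1 in Cameor and 8.34 in JI92. Those kept as lower had 1.59, 11.5 and 6.39 CPM in the same order. In 1782 higher features all 8 PI358617 libraries lay above all 16 domesticated ones, and in 1268 lower features they all lay below. Over all features tested, the kept ones included, the counts were 1787 (background 5.11%) and 1287 (background 3.68%). Nearly every feature without overlap was thus a kept one. The rule used these same libraries, so the counts are a description. When libraries were set against each other only within their stage, the counts were 2422 higher and 2090 lower. Over all features tested they were 2460 (background 7.04%) and 2227 (background 6.37%).

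**Figure D2:**
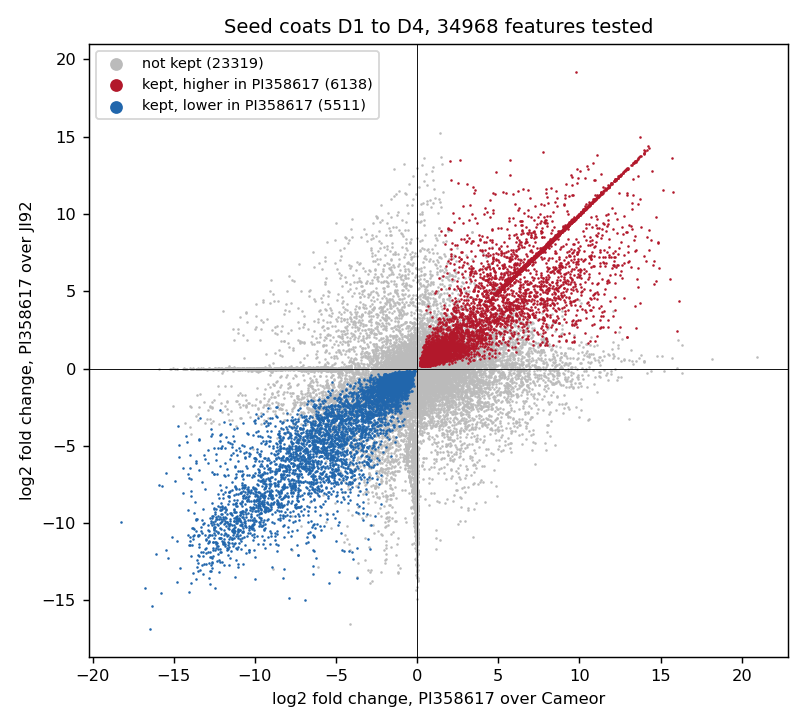
Log2 fold change of PI358617 against Cameor (horizontal axis) and against JI92 (vertical axis) for the features tested; colours mark the 6138 features kept as higher, the 5511 kept as lower and the others. The kept features lie at the upper right and lower left, as the rule requires, and reach beyond 10 on the log2 scale in both directions.

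Part of the kept features had no count at all on one side. Since all reads were mapped to the genome of Cameor, a count of 0 in PI358617 does not prove an absent transcript. How far differences in sequence lowered the counts of PI358617 could not be measured from counts alone and was not tested. Of the annotated genes kept as lower, 729 had not 1 count in the 8 PI358617 seed coats, and 33 of these averaged at least 5 CPM in both Cameor and JI92. A count of 0 over a group was read as allowing up to 3 counts, which is 0.00597 CPM over the 8 PI358617 libraries and 0.00254 CPM over the 16 domesticated ones, and such limits cover counting error only. Of the 729 genes, 513 also had no count in the 12 PI358617 libraries that the rule did not use, 2 of D5 seed coat and 10 of embryo. In the opposite direction 300 annotated genes kept as higher had no count in any of the 16 domesticated seed coats, 9 of them averaged at least 5 CPM in PI358617, and 214 had no count in the 26 further Cameor and JI92 libraries either. Among the loci 1006 had no count in PI358617 and 1180 had none in Cameor and JI92, and 790 and 1046 of these stayed at 0 in the unused libraries of the same accessions.

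The wild accessions JI64, JI261 and JI1794 took no part in the rule, and their seed coats of D1, D3 and D4 showed how widely these features occurred. Of the 729 annotated genes at 0 in PI358617, 306 also had no count in JI64, 412 in JI261 and 237 in JI1794. At least 1 CPM was reached by 363 of them in Cameor, 217 in JI92, 197 in JI1794, 137 in JI64 and 55 in JI261. Of the 300 annotated genes at 0 in Cameor and JI92, 203 had no count in JI64, 218 in JI261 and 237 in JI1794, and 12, 12 and 8 reached 1 CPM there. Among the 1180 loci at 0 in the domesticated accessions, 915 were at 0 in JI64 too, 950 in JI261 and 996 in JI1794. These loci passed the filter through PI358617 alone. Over all 10206 loci tested the medians were 0.0193 CPM in JI64, 0 in JI261 and 0.00699 in JI1794, so low levels there were common among loci. Of all annotated genes tested, 66.7% reached 1 CPM in JI64, 65.2% in JI261 and 70.1% in JI1794. The share of all features with no count in a wild accession was not counted.

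The 10 annotated genes with the widest differences upward, by the smaller of both fold changes, were low to moderate in level. Psat4g089360 had 13.8 to 28.4 CPM (median 18.9) in the 8 PI358617 seed coats and no count in 16 domesticated ones, which makes it at least 7821-fold higher. It had 2.15 to 10.8 CPM in JI1794 and no count in JI64 or JI261. Psat1g069280 was the most abundant of the 10, with 32.6 to 134 CPM (median 81), no count in Cameor and at most 0.0409 CPM in JI92. It was highest at D1 and D2, where it had 128 and 122 CPM and 134 and 134 CPM, and it had at most 0.749 CPM in the PI358617 embryos of D2 to D5, the stages to which all embryo levels of single genes here refer. Its log2 fold change was 15.69 (SE 0.44) against Cameor and 13.65 (SE 0.4) against JI92. With no count in Cameor, the first value and its SE depend on the prior count and give no margin of the true difference. Psat0s1548g0080 had 6.19 to 17.3 CPM (median 12.5) and Psat6g170480 7.15 to 17.6 CPM (median 11.8), neither with a count in the 16 domesticated seed coats. Their medians were higher in the PI358617 embryos of D2 to D5, with 16.7 to 25.1 CPM (median 20.9) and 17 to 48.2 CPM (median 28.9), and in the wild seed coats the highest library had 0.661 CPM of the first and 0.0647 CPM of the second.

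Tissue separated the others of these 10 genes. Psat5g165360 had 7.38 to 14.9 CPM (median 12.8) in the PI358617 seed coat, 13.9 and 18.5 CPM at D5 and no count in 8 PI358617 embryos of D2 to D5. Psat7g175080 had 2.84 to 8.49 CPM (median 5.26), 0.928 and 0.891 CPM at D5, and likewise no embryo count. Psat5g064760 had 3.04 to 11.5 CPM (median 7.83) up to D4 and no count in either D5 library. It was thus present at each of the 4 earlier stages, from 3.04 and 3.38 CPM at D1 to 11.5 and 10.7 CPM at D3. Psat4g102640 (5.44 to 10.9 CPM (median 8.69)) and Psat6g022800 (5.45 to 9.03 CPM (median 7.56)) occurred in both tissues, with 2.04 to 4.59 CPM and 2.67 to 4.97 CPM in the embryos. None of these 5 genes had more than 0.245 CPM in any domesticated or wild seed coat of D1 to D4. Psat7g007920 differed from them, since it had 3.24 to 14.4 CPM (median 7.66) in PI358617 and 14.6 to 102 CPM (median 40.3) in the wild JI261, but no count in Cameor, JI92, JI64 or JI1794.

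The 10 annotated genes with the widest differences downward included more abundant transcripts. Psat3g184640 had 142 to 358 CPM (median 221) in Cameor and 46.3 to 277 CPM (median 138) in JI92, against at most 0.0635 CPM in PI358617. Its log2 fold change was -13.38 (SE 0.5) against Cameor and -13.01 (SE 0.5) against JI92. All 3 wild accessions held it as well, with 88 to 308 CPM in JI64, 57.4 to 227 CPM in JI261 and 48 to 286 CPM in JI1794. By these mapped counts PI358617 stood alone among the 6 accessions. Psat2g167360 showed the same pattern, with no count in the PI358617 seed coat, 100 to 144 CPM in Cameor, 20.7 to 50.9 CPM in JI92 and 27.9 to 141 CPM in the wild accessions. It was at least 6273-fold lower than in either domesticated accession. Psat5g214640 had no count in PI358617, 47.7 to 74.8 CPM in Cameor, 16.2 to 36.2 CPM in JI92 and 2.91 to 22.9 CPM in the wild accessions. Psat3g172160 had no count in PI358617, 9.65 to 20.9 CPM in Cameor and 2.63 to 34.8 CPM in JI92, and JI261 held it at 14.6 to 163 CPM.

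The remaining 6 genes of this group had no count in the PI358617 seed coats of D1 to D4, and for 5 of them at least 1 wild accession also had little or no count. Psat5g133760 had 116 to 282 CPM in Cameor and 0.266 to 89.2 CPM in JI92, where D1 was lowest with 0.266 and 0.894 CPM. JI64 held it at 96.5 to 576 CPM, and JI1794 at most 0.042 CPM. Psat6g105000 had medians of 26 CPM in Cameor and 17.9 CPM in JI92, where the highest library reached 48.8 CPM. JI261 held it at 2.06 to 51.2 CPM, but it had at most 0.247 CPM in JI64 and no count in JI1794. For Psat6g098800, Psat0ss4737g0040 and Psat1g093120 the wild accession with most of the transcript was JI1794, with 13.5 to 19.1 CPM, 10.7 to 18.3 CPM and 0.976 to 2.59 CPM, against at most 1.05 CPM in JI64 and no count in JI261. In the domesticated accessions these 3 genes had 6.32 to 21.9, 6.96 to 25.4 and 6.87 to 17 CPM. Psat1g054040 was high at 1 stage of JI92, with 430 and 438 CPM at D4 and at most 3.23 CPM at D1 to D3, in the 2 libraries that stood apart by their abundant embryo transcripts. Without them its log2 fold change against the class was -11.23 in place of -15.33. Its level in Cameor was 2.82 to 11.7 CPM, and in the JI92 embryos it reached 366 CPM. All 3 wild accessions held it, with 2.27 to 22 CPM in JI64, 5.7 to 25.1 CPM in JI261 and at most 10.4 CPM in JI1794, and 1 PI358617 library of D5 had 0.108 CPM.

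**Figure D3:**
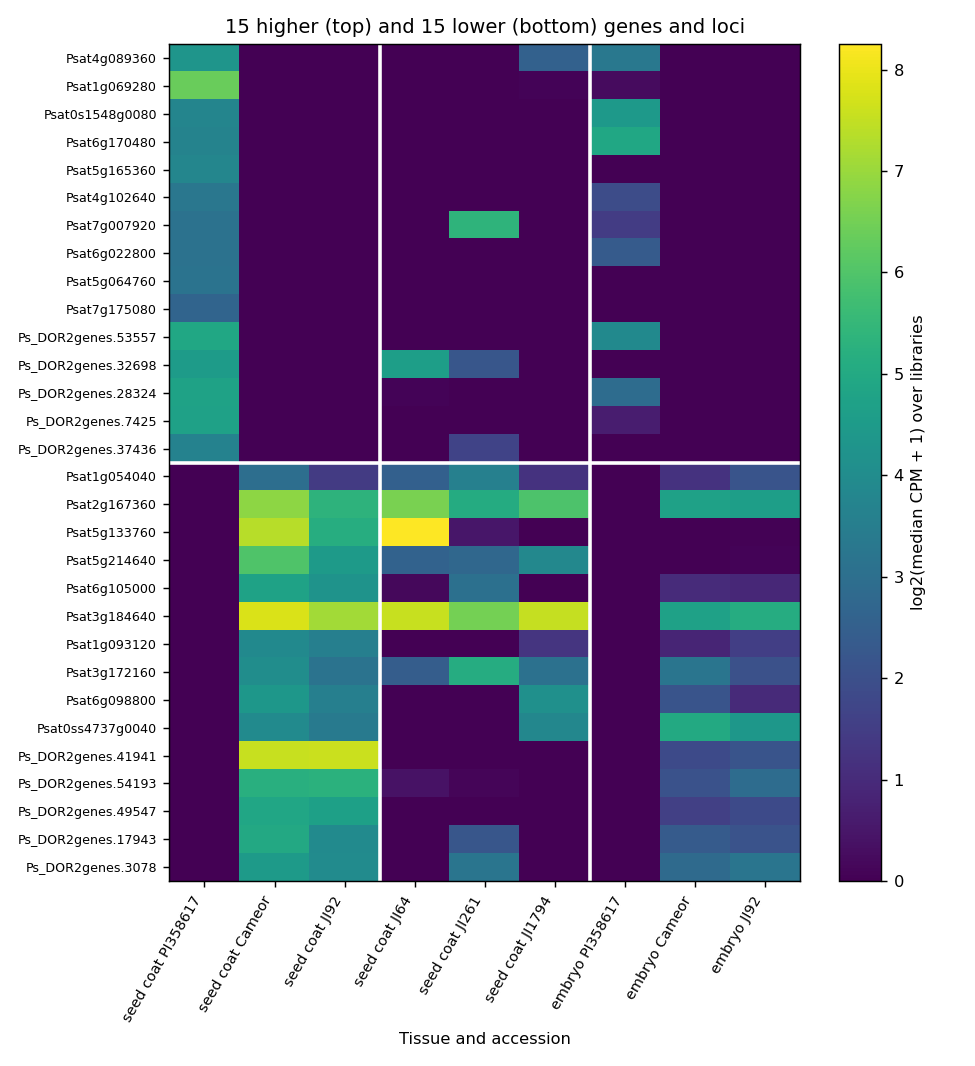
Level of the 30 genes and loci with the widest differences (rows, 15 higher above and 15 lower below the white line) as log2(median CPM + 1) over libraries on a colour scale; the columns are the seed coats of PI358617, Cameor and JI92, the seed coats of the wild JI64, JI261 and JI1794, and the embryos of D2 to D5 of PI358617, Cameor and JI92. The upper rows are at 0 in the medians of Cameor and JI92 and the lower rows in those of PI358617, and single wild accessions hold members of both groups.

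Loci outside the annotation showed the same kind of contrast. Ps_DOR2genes.41941 had 169 to 225 CPM (median 188) in Cameor and 107 to 281 CPM (median 191) in JI92, and no count in any of the 20 PI358617 libraries of either tissue. It was at least 31971-fold lower in the PI358617 seed coat, and the wild seed coats held at most 0.0346 CPM. Ps_DOR2genes.54193, Ps_DOR2genes.49547, Ps_DOR2genes.17943 and Ps_DOR2genes.3078 had no count in the 8 PI358617 seed coats and between 7.3 and 68 CPM in the domesticated ones. JI261 held the last 2 of these, with 1.17 to 7.94 and 4.45 to 11.2 CPM. Upward, Ps_DOR2genes.53557 had 22.7 to 37.6 CPM (median 29.3) in PI358617 and no count in 16 domesticated seed coats, at least 11578-fold higher. Ps_DOR2genes.28324 (19.5 to 40.5 CPM (median 26.2)) and Ps_DOR2genes.7425 (19.2 to 33.6 CPM (median 25.7)) had no count in Cameor or JI92 either. Ps_DOR2genes.32698 and Ps_DOR2genes.37436 were early transcripts, with 76.4 and 72.4 and 82.9 and 83.3 CPM at D1 and 7.23 and 6.65 and 7.95 and 6.76 CPM at D4. The first of these was also present in JI64 (7.78 to 31.4 CPM) and JI261 (0.68 to 7.23 CPM), and the second in JI261 (0.398 to 54.4 CPM).

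Among the abundant transcripts of the seed coat, 5 annotated genes had the largest excess of mean FPKM in PI358617 over the nearer domesticated accession. Psat1g156800, a member of the seed-coat-enriched list, had 8840 to 16360 CPM (median 10834) in PI358617, 97.3 to 4984 CPM in Cameor and 1662 to 10647 CPM in JI92. The ranges of PI358617 and JI92 overlapped, because JI92 at D2 had 10647 and 9506 CPM. With the stage score in place of the label it had a log2 fold change of 1.85 and no longer met the rule. The difference was widest at D4, with 10016 and 9879 CPM against 97.3 and 100 CPM in Cameor and 1662 and 1756 CPM in JI92. Psat7g234440, an early seed coat gene, reached the highest level of all the genes named, with 70549 and 67121 CPM at D3. At D3 Cameor had 228 and 228 CPM of it and JI92 7719 and 6429 CPM, while at D2 PI358617 (17201 and 17097 CPM) and JI92 (17025 and 17172 CPM) were level. Psat6g015280 had its highest level at D1, with 8558 and 8339 CPM in PI358617, 179 and 187 CPM in Cameor and 4674 and 6417 CPM in JI92. Psat4g005360 had 11672 to 18710 CPM (median 12786) in PI358617, 2356 to 8476 CPM in Cameor and 1868 to 13042 CPM in JI92, and within each stage its PI358617 libraries lay above the domesticated ones. Psat1g048160 was the steadiest of the 5, with 206 to 473 CPM (median 372) against 30.6 to 49.4 CPM and 58.9 to 87.1 CPM, and its log2 fold change was 3.64 (SE 0.15) against Cameor and 2.28 (SE 0.14) against JI92.

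The 5 abundant genes with the largest deficit held 2 with very low mapped counts in PI358617. Psat2g026840, which stood in both the seed-coat-enriched and the early list, had 114 to 4245 CPM (median 2079) in Cameor, 1675 to 24469 CPM (median 9523) in JI92 and only 1.9 to 21.3 CPM (median 2.78) in PI358617. The wild seed coats held 1291 to 46906 CPM of it, so its low level in PI358617 was not shared by any of the other 5 accessions. Its log2 fold change was -7.71 (SE 1.18) against Cameor and -10.52 (SE 1.21) against JI92. Psat5g092120, also seed-coat-enriched, had 197 to 525 CPM in Cameor, 294 to 1599 CPM in JI92 and 69.1 to 664 CPM in the wild accessions, and at most 0.148 CPM in PI358617. The other 3 genes were present in all accessions at different levels. Psat6g202040 had 89.4 to 211 CPM (median 164) in PI358617, 517 to 1388 CPM in Cameor and 372 to 1895 CPM in JI92. Psat5g089120 had 321 to 400 CPM (median 354), 1127 to 3681 CPM and 535 to 1212 CPM in the same order, and neither of these 2 genes overlapped between PI358617 and the domesticated libraries. Psat5g004800 did overlap, with 560 to 2905 CPM in PI358617, 1830 to 7046 CPM in Cameor and 968 to 6767 CPM in JI92, its log2 fold change against the class was -0.63 (SE 0.21), and with the stage score in place of the label it was -0.06 and no longer met the rule.

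**Figure D4:**
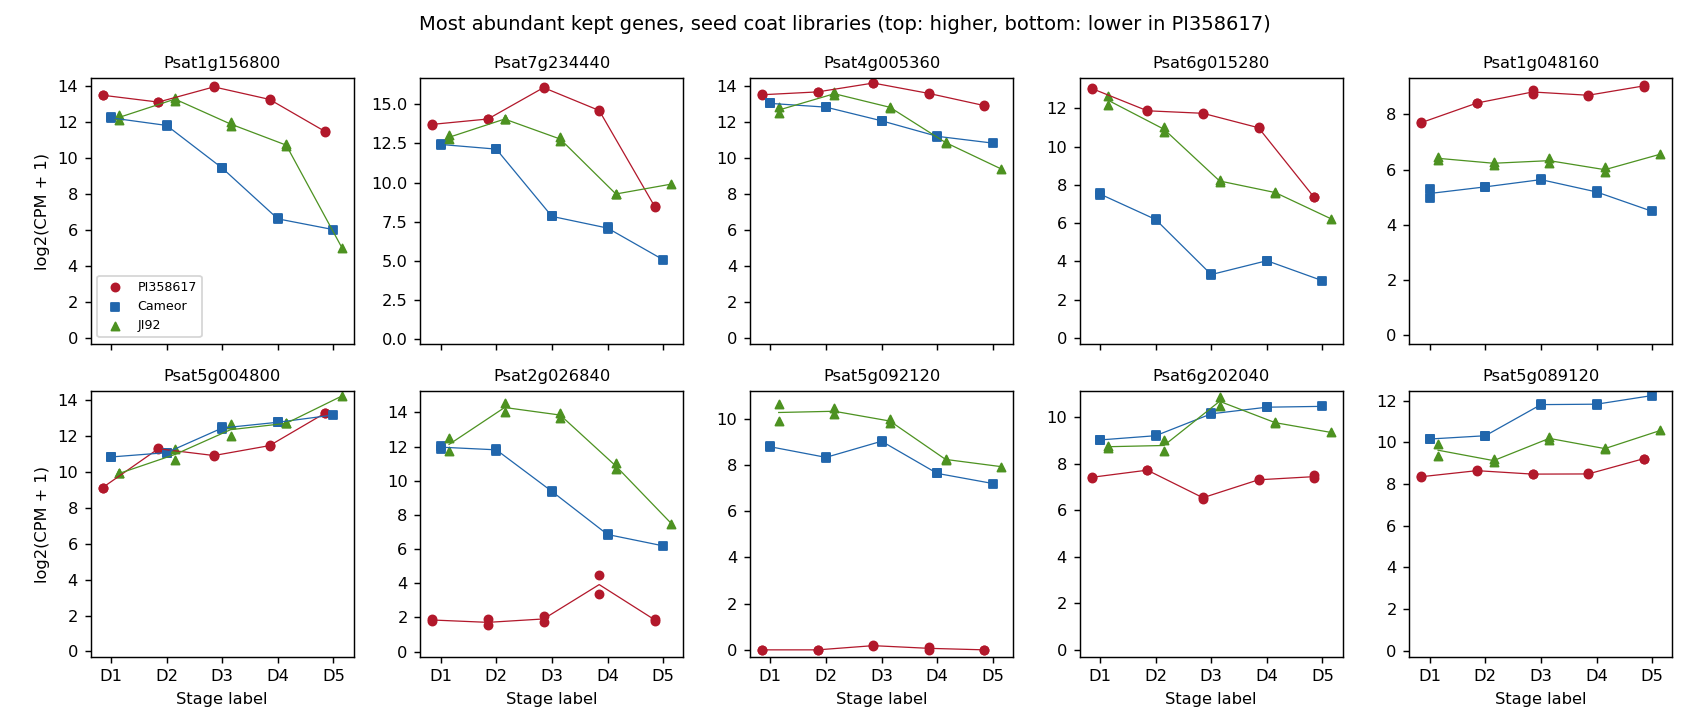
Level of the 10 abundant kept genes, log2(CPM + 1) on the vertical axis against the stage label D1 to D5, with 1 panel per gene, points for single libraries and lines for the means of PI358617, Cameor and JI92. Psat2g026840 and Psat5g092120 stay near 0 to 21.3 CPM in PI358617, and the excess of Psat7g234440 and Psat1g156800 opens at D3 and D4.

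The difference of PI358617 from the mean of Cameor and JI92 was taken on the log2 scale. Whether it changed between stages was tested with an F test over D1 to D4, another contrast than the one that chose the genes. It called 10689 of 34968 features (30.6%), 1892 of the 6138 higher features (30.8%) and 1429 of the 5511 lower ones (25.9%). Among all annotated genes tested, 40.4% were called. The sign was the same at all 4 stages in 5464 higher and 5210 lower features. The rule chose these features by sign in the same libraries, so these counts are a description. The share over all features was not counted. In Psat1g156800 the difference was 1.6 at D1, 0.71 at D2, 3.93 at D3 and 4.67 at D4 on the log2 scale (edgeR adjusted p = 8.13e-13). In Psat7g234440 it went from 1.4 at D1 and 1.1 at D2 to 6.4 at D3 and 6.5 at D4 (edgeR adjusted p = 4.87e-12). Both widened at the stages at which the score of PI358617 was below that of the domesticated accessions. Psat7g234440 is itself among the early genes that make up the score, and a link between score and widening was not tested. In Psat2g026840 the difference narrowed from -11.73 at D2 to -4.84 at D4 (edgeR adjusted p = 5.09e-08). Among the 20 annotated genes with the widest fold changes 0 passed this test, and its adjusted p was lowest in Psat3g184640 (0.096). With no or almost no count on 1 side, a change of such a difference over stages can hardly be estimated. The test therefore does not tell whether these differences were steady. Psat1g069280 did not pass, although it went from 128 and 122 CPM at D1 to 33.7 and 32.6 CPM at D4 in PI358617.

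The kept genes with the smallest p in this test were picked for it, and their values are a description. Psat6g141480, in the seed-coat-enriched and early lists, had 3260 and 3297 CPM at D3 in PI358617, when Cameor had 3.94 and 3.63 CPM and JI92 232 and 223 CPM. At D1 it was the other way round in Cameor, with 502 and 509 CPM in PI358617 and 2349 and 2387 CPM in Cameor. Psat6g160800, an early gene, stayed at 608 and 638 CPM at D4 in PI358617 when Cameor had 6.8 and 7.92 CPM and JI92 49.5 and 49.1 CPM. Psat7g264360 had the same course, with 127 and 120, 14.3 and 12.5 and 7.5 and 7.76 CPM at D4. Of the lower genes, Psat7g256080, a late gene, was level at D1 (57.7 and 60.1 CPM in PI358617, 71.3 and 70.5 CPM in Cameor) and at D4 had 75.2 and 70.2 CPM against 415 and 451 CPM. Psat5g133080 went from 11.5 and 8.19 CPM at D1 to 309 and 285 CPM at D4 in JI92 and from 21 and 20.8 to 23.6 and 23 CPM in PI358617. Psat7g028920 had at most 1.23 CPM in PI358617 and 88.6 and 81.7 CPM in JI92 at D4, in the 2 libraries that stood apart by their abundant embryo transcripts. JI92 had 0.942 to 6.6 CPM of it in the seed coats of D1 to D3 and up to 416 CPM in the embryos. With the stage score of each library in place of the stage label, Psat6g141480, Psat6g160800 and Psat7g256080, which are among the genes that make up the score, no longer met the rule, with log2 fold changes of 2.05, 1.48 and -0.35 against the class.

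The lists of early and late seed coat genes were kept in opposite proportions. Of 300 early genes 75 were kept as higher and 17 as lower, with a median log2 fold change of 0.91 against the class, and of 300 late genes 9 were kept as higher and 73 as lower, with a median of -1.09. Over all features tested these shares were 17.6% and 15.8%, and the median was -0.22. On the log2 scale the median difference of the early list was 1.4 at D1, -0.23 at D2, 1.76 at D3 and 2.44 at D4, and that of the late list -0.43, 0.61, -1.63 and -2.32. Both lists make up the stage score, in which PI358617 lay below the domesticated accessions at D3 and D4. A fit with that score as a term gives no separate reading of these lists, since it is made from them. Without both JI92 libraries of D4, 42 early genes were kept as higher and 17 as lower (median 0.88), and of 299 late genes 12 were kept as higher and 53 as lower (median -0.84). The share of early genes kept as higher was then no longer above the 17.6% of all features, a share taken with these libraries included. Of the 300 seed-coat-enriched genes 69 were kept as higher and 17 as lower (median 0.61), and of 298 embryo-enriched genes 9 as higher and 74 as lower (median -1.16). Of 49 abundant embryo genes tested 14 were kept as lower and 1 as higher, and their median difference was 0 at D1 and D2, -3.15 at D3 and -4.88 at D4. Without both JI92 libraries of D4, whose share of these genes reached 4.21%, 9 were kept as lower and 1 as higher of 47, and of the embryo-enriched genes 54 were kept as lower and 12 as higher. With the stage score in place of the stage label, 33 embryo-enriched genes were kept as lower and 10 as higher (median -0.42), and 6 of the 49 abundant embryo genes were kept as lower and 3 as higher. Some genes of the embryo-enriched and seed-coat-enriched lists are among those that make up the score. The fit with the score therefore gives no separate reading of these lists either. The seed-coat-enriched genes had 56 higher and 22 lower with the score and 55 and 17 without both JI92 libraries of D4. In bulk tissue, fewer cells of a type and less RNA per cell cannot be told apart.

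The D5 seed coats, 2 libraries of PI358617 and 1 each of Cameor and JI92, took no part in the rule. They were tested as PI358617 against the mean of both domesticated accessions on the log2 scale. Because the domesticated accessions had 1 library each, the spread came from the pairs of PI358617, JI261 and JI1794, and the lone libraries are assumed to vary like these. Among all 33268 features tested at D5, 22.4% were called higher and 18.9% lower in PI358617. Of the 6138 features kept as higher, 5467 passed the D5 filter on low counts, 3769 of these were called higher (68.9%), 64 lower and 1634 neither. Of the 5511 kept as lower, 5085 passed the filter, 3011 were called lower (59.2%), 57 higher and 2017 neither. A feature with counts on 1 side alone can pass that filter only through that side, so the features with at least 1 CPM on average in all 3 accessions at D1 to D4 were also counted. Of 2635 such higher features 1907 were called higher and 56 lower at D5, and of 2202 such lower features 1494 were called lower and 55 higher. All 15417 tested features with that level had 30% higher and 26.6% lower calls.

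The named genes varied at D5. Psat2g167360 had no count in either PI358617 library at D5, 142 CPM in Cameor and 59.8 CPM in JI92. Psat3g184640 had no count, 246 CPM and 122 CPM in the same order. Psat1g156800 had 2877 and 2892 CPM in PI358617, 64.9 CPM in Cameor and 32 CPM in JI92, a log2 fold change of 6.05 (SE 0.04, adjusted p = 7.71e-09) in edgeR. Psat1g048160 had 505 and 535 CPM in PI358617, 21.5 CPM in Cameor and 93.2 CPM in JI92 (log2 fold change 3.6 (SE 0.08, adjusted p = 5.03e-07), edgeR). Psat6g141480 had at most 4.28 CPM in all 4 libraries, and its log2 fold change of 0.29 (SE 0.55, adjusted p = 0.816) did not pass in edgeR. Psat7g234440 lay between the domesticated accessions, with 344 and 358 CPM in PI358617, 32.6 CPM in Cameor and 958 CPM in JI92. Against the mean of both on the log2 scale it was higher (log2 fold change 1.06, edgeR). That mean is taken over logs and not over CPM, and PI358617 had less of this transcript than JI92.

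The embryos of D2 to D5, 8 libraries of each accession, were tested with the same 3 comparisons. In these embryos the stage score, which was defined in seed coats, also differed at the same label. At D3 it was 0.54 and 0.5 in PI358617, 2.85 and 2.88 in Cameor and 2.94 and 2.96 in JI92. At D4 it was 1.49 and 1.51, 3.62 and 3.56, and 3.34 and 3.52 in the same order. PI358617 was again lowest at D5, but highest at D2. The embryo comparisons were not repeated with the score, and its part in the calls was not tested. Of all 31958 features tested 19.7% were called higher and 13.3% lower in PI358617. Of the features kept as higher in the seed coat 5169 were tested in the embryo, and 2846 were called higher (55.1%), 133 lower and 2190 neither. Of those kept as lower 4909 were tested, and 2172 were called lower (44.2%), 119 higher and 2618 neither. With at least 1 CPM on average in the seed coat of all 3 accessions, 703 of 2580 higher features were called higher (27.2%) and 615 of 2185 lower ones lower (28.1%), beside 13.2% and 12.7% of all 15215 features with that level. The embryo repeated the seed coat difference in Psat2g167360, with at most 0.0683 CPM in PI358617, 11.3 to 57 CPM (median 25.7) in Cameor and 4.02 to 65.4 CPM (median 23.7) in JI92 (log2 fold change -11.12 (SE 0.66, adjusted p = 2e-11), edgeR). Psat3g184640 had no count in the PI358617 embryos and 15 to 37.8 CPM in the domesticated ones. Psat1g048160 was called as well, with 115 to 181 CPM (median 157), 17.9 to 102 CPM (median 51.7) and 16.9 to 195 CPM (median 80.8) (log2 fold change 1.73 (SE 0.34, adjusted p = 0.00031), edgeR). Psat6g202040 was not, with medians of 172, 168 and 168 CPM in PI358617, Cameor and JI92 (log2 fold change 0.29 (SE 0.25, adjusted p = 0.346), edgeR). Psat7g234440 was called in the opposite direction, with 82.4 to 1172 CPM (median 119) in PI358617, 592 CPM at the median in Cameor and 576 CPM in JI92 (log2 fold change -1.07 (SE 0.31, adjusted p = 0.00786), edgeR).

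**Figure D5:**
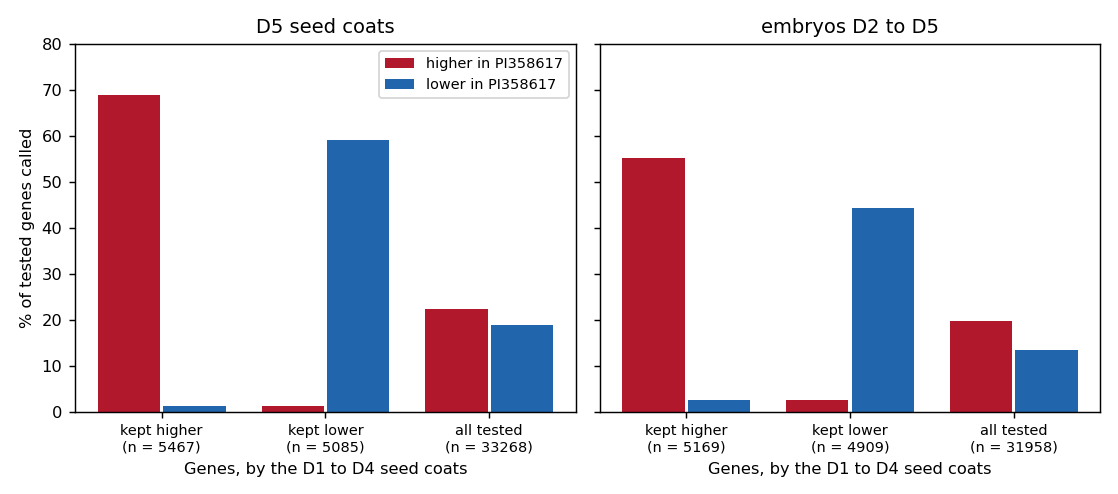
Share of features called higher and lower in PI358617 (vertical axis, percent of features tested) in the D5 seed coats and in the embryos of D2 to D5, for features kept as higher, features kept as lower and all features tested. Of the features kept as higher, 68.9% were called higher at D5 and 55.1% in the embryo.

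Taken over seed coat D1 to D4, seed coat D5 and embryo, 9565 kept features were tested in all 3 settings, and 1888 were higher and 1500 lower in PI358617 in each of them. Another 969 higher and 602 lower features did not pass the filter in the embryo, and 298 of the higher and 157 of the lower features had no embryo count at D2 to D5 in the 3 accessions. For the features called in all 3 settings no share over all features was counted. They include features with counts on 1 side alone, which pass the filters only through that side. With at least 1 CPM in all 3 accessions, the embryo shares were 27.2% and 28.1%, beside 13.2% and 12.7% of all features with that level.

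Annotated genes kept as higher were not low elsewhere. Over D1, D3 and D4 their median level was 15.1 CPM in PI358617, 8.1 in Cameor, 8.34 in JI92, 8.28 in JI64, 9.97 in JI261 and 11.2 in JI1794. Annotated genes kept as lower had a median of 1.59 CPM in PI358617, 2.73 in JI261, 4.94 in JI64, 5.98 in JI1794, 6.39 in JI92 and 11.5 in Cameor. The median of all annotated genes tested ran from 4.37 CPM in JI261 to 7.49 in Cameor, and was 4.7 in PI358617. The kept loci were rarer, and 33.9% of those kept as higher reached 1 CPM in PI358617, 6.59% in Cameor, 7.02% in JI92 and 11.1% to 12.6% in the wild accessions. Of the loci kept as lower 44.8% reached 1 CPM in Cameor, 31.3% in JI92, 3.72% in PI358617, 8.91% in JI261, 20.3% in JI64 and 21.1% in JI1794. The transcript length implied by counts and FPKM had a median of 2405 bases in annotated genes kept as higher, 3206 in those kept as lower and 2707 in all annotated genes tested.

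The kept annotated genes were spread over all identifier series. The share kept as higher ran from 14.7% in the series Psat2g and Psat0s to 16.5% in Psat1g, and the share kept as lower from 15.2% in Psat3g to 17.6% in Psat6g. In identifier order, the next gene tested was kept as lower after 19% of genes kept as lower, beside 16% over all genes, and as higher after 18% of genes kept as higher, beside 15.3%. The longest run of one direction held 6 genes, Psat6g089400 to Psat6g090040, all lower in PI358617, with log2 fold changes against the class of 2.15 to 10.68 in size.

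At the edge of the rule the values were close. Psat7g235400 was the kept gene nearest to the threshold, with a largest adjusted p of 0.0499935 and a log2 fold change of -0.24 against JI92. It had 9.05 to 16.8 CPM (median 13.9) in PI358617, 20.2 to 51.8 CPM in Cameor and 10.1 to 23.3 CPM in JI92. Ps_DOR2genes.9413, with 0.0500079, lay just outside, and had no count in PI358617, at most 0.0961 CPM in Cameor and at most 0.382 CPM in JI92.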

How the data were processed

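Messenger RNA of seed tissues was sequenced from oligo(dT)-enriched total RNA, per the labels' protocols. Reads were mapped to the Cameor v1.0 genome, per the series' design text, and HISAT2 2.1.0 and StringTie 2.1.0 are listed in the submitters' processing notes with no role given. The authors deposited raw read counts per feature, which are whole numbers, and FPKM values of the same libraries. Read assignment, strandedness and the definition of unannotated loci were not given in the sources used here. Copies of a gene may share reads.

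The 24 libraries were grouped by the tissue, genotype and stage labels. Differences were tested on counts with the quasi-likelihood F test of edgeR 4.0.16 under R 4.3.3 (robust, TMM, filterByExpr by accession and stage, Benjamini-Hochberg, threshold 0.05), and every adjusted p printed comes from it. Each SE printed was derived as the size of the log2 fold change over the square root of F. It is no margin of error where 1 side has no or almost no count. Alternatives used RLE, no filter, DESeq2 1.42.0, limma 3.58.1 (log2 of FPKM plus 1 or plus 0.1), a replicate block, sums, single libraries and stages left out, the 2017 libraries of JI92, the stage score and annotated genes alone. The scripts were tested on simulated data. The labels number the replicates without saying that a number marks a shared plant or batch, so the numbers were not taken as pairs.

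The JI64 seed coat replicate 2 of D1, which stands apart from its group, was left out of wild levels, and both JI64 libraries of D5 out of the D5 fit. Named genes were kept genes without overlap between PI358617 and the domesticated libraries, with at least 5 CPM on the higher side, ranked by the smaller fold change (10 higher and 10 lower annotated genes, 5 and 5 loci); the 5 and 5 with the largest FPKM difference; the 3 and 3 with the smallest p for stage dependence; and those nearest the threshold. A gene's length-scaled FPKM chose the abundant genes, while their levels are printed in CPM. Tissue and stage lists came from JI261 and JI1794. The members, lists and rules were chosen with earlier results of these data known.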

Additional observations from a re-analysis of the deposited data

Results flagged for a closer look

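The difference between PI358617 and the mean of Cameor and JI92 changed with the stage, by edgeR's F test on D1 to D4, in 17 of the 47 kept genes named. All of these were annotated genes outside the group with the widest fold changes. In that group counts of 0 or near 0 on 1 side leave the test little to decide. Among the abundant genes that were higher in PI358617 the adjusted p was 8.13e-13 for Psat1g156800, 4.87e-12 for Psat7g234440, 4.11e-09 for Psat6g015280, 9.45e-07 for Psat4g005360 and 0.000105 for Psat1g048160. In Psat6g015280 the difference was 3.41 at D1 and 6.71 at D3 on the log2 scale. Among the abundant genes that were lower it was 7.35e-09 for Psat6g202040, 5.09e-08 for Psat2g026840, 0.000708 for Psat5g004800, 0.00152 for Psat5g089120 and 0.0287 for Psat5g092120. Psat5g004800 changed sign between stages, with -0.89 at D1, 0.37 at D2 and -1.2 at D4. Psat5g092120 had no count in PI358617 at D1 and D2, so its fitted differences there depend on the prior count.

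The 6 genes chosen for this test had 1.09e-15 (Psat6g141480), 3.07e-14 (Psat6g160800), 5.8e-13 (Psat7g264360), 5.15e-12 (Psat5g133080), 1.01e-10 (Psat7g256080) and 4.84e-10 (Psat7g028920), all adjusted p from edgeR, and the choice used these values. Psat7g235400, the kept gene nearest to the threshold, had 7.76e-05, with a difference of -0.13 at D2 and -1 at D4. The stage scores of the 3 accessions differ at the same stage label, and the part of this in the 17 results was not tested.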

How the results depend on the processing

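The kept features numbered 9571 to 12572 under the RLE, no-filter, DESeq2, limma, stage, JI92 D4 and 2017 settings and with the stage score in place of or beside the stage label, and the count was lowest with both label and score, where 13608 features were called against the class, and no feature (0) was kept under any of these in the opposite direction. Leaving out 1 library in turn gave 11150 to 12167 kept features, 5636 to 6296 higher and 5127 to 6115 lower, of 18021 to 19974 against the class, 23404 to 24317 against Cameor and 17609 to 18814 against JI92. It gave 9844 to 11025 in the embryo, 9831 to 14317 at D5 and 9273 to 12487 for stage dependence. With the 2 libraries of an accession and stage summed to 1 sample, which leaves fewer samples, the rule kept 4359 features, 1971 higher and 2388 lower, and 4357 of them were kept as before. The comparisons then called 4931 against the class, 15039 against Cameor and 7671 against JI92, and 4148 in the embryo. With annotated genes alone, and so fewer features tested, it kept 7641, of which 3521 were higher, with 12078 called against the class and 11923 against JI92. Adding the JI64 libraries lowered the D5 count from 13735 to 8181, and the cause was not tested.

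In a check of pairing, same-numbered libraries of 2 groups deviated together with r above 0.1 in 3 of 66 pairs of groups (-0.17 to 0.76, median 0). With a replicate block the rule kept 11302 features (11241 as before), 10204 in the embryo and 11021 at D5, and 10609 depended on stage.

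All 1870 log2 fold changes of the 47 named genes kept their sign, and 92 no longer met the rule, spread over 13 genes. These were 23 of 40 settings for Psat6g141480, 17 for Psat7g256080, 16 each for Psat5g004800 and Psat7g235400, and 6 for Psat6g160800. Under sums Psat1g156800 (2.33) and Psat7g234440 (3.72) also missed the threshold, as Psat7g234440 did without D4 (2.42). Psat1g054040 missed it with limma on log2(FPKM + 1) at -1.53. The widest fold changes of features with no count on one side depend on the prior count, and depth limits them to the bounds given.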
